A study of Mus musculus with 24 samples.

Results

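The comparison described here set the hemisphere on the side of a middle cerebral artery occlusion (IP) against the opposite hemisphere (CL) of the same mouse. It used 16 of the 24 arrays of the study, which were paired by the mouse number in the sample titles into 8 pairs. All mice were male C57Bl/6j animals of 8 to 10 weeks. In the MCAO (middle cerebral artery occlusion) mice the artery was blocked by the intraluminal method for 90 min, and the brain was taken 30 min after the end of the block, 2 h after its start. Another 4 mice had sham surgery without occlusion, and their IP and CL hemispheres gave the side difference that surgery and dissection leave. Every brain was rinsed with cold saline through the heart before it was divided, and whole hemispheres were measured, so the IP samples held tissue inside and outside the territory of the artery. In whole tissue, fewer cells of a type and less RNA per cell cannot be told apart.

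The middle cerebral artery supplies most of the lateral cortex and the striatum. Its closure stops oxygen and glucose delivery, and dying and surviving neurons depolarise, release glutamate and admit calcium. Calcium and the MAP kinases then act on transcription factors that are already present in the cell, such as CREB and SRF, and these switch on immediate early genes within minutes, before any new protein is needed. Many of the products are short-lived transcription factors, and others are phosphatases and RNA-binding proteins that shut the same signals off.

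The values were log2 signals of 22206 probe sets that were not array controls, 19572 of them with 1 gene symbol. MCAO mouse 3 and sham mouse 1 stood apart. On the 4 arrays of these mice the SD of log2 signal over probe sets was 1.44 to 1.54, under the limit of 2 set for this comparison, against 2.33 to 2.41 on the other 20. Their median correlation with the other arrays was 0.328 to 0.55, against 0.981 to 0.989, and 95% of their negative control probe sets lay below 7.41 to 7.61, against 5.17 to 5.74. Counts are therefore given on the 20 arrays (7 MCAO and 3 sham mice) and again on all 24, and values of single genes are from the 20 unless all 24 are named. A probe set was above background on an array where it exceeded that array's 95th percentile of negative controls, and a level is its mean over the 14 MCAO arrays of the 20. Markers of neurons, astrocytes and oligodendrocytes were above background in 8 of 8, 8 of 8 and 7 of 7 measured genes on most CL arrays. Choroid plexus markers were above it in 0 of 6, neutrophil and monocyte markers in 0 of 7 and erythroid markers in 0 of 2. Only Alas2 and Slc4a1 of 6 listed erythroid genes were measured, so the listed haemoglobin genes were not assessed. Ttr, the choroid plexus transthyretin gene, had a level of 3.72.

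On the 20 arrays, 28 probe sets were higher on the occluded side (0.126% of those tested) and 2 were lower (0.00901%) in limma with mouse as a block, at a Benjamini-Hochberg adjusted p under 0.05. On all 24 arrays 19 were higher (0.0856%) and 0 were lower (0%), with 386 higher and 532 lower at an unadjusted p under 0.05. The calls shared by both fits were 18, and 31 probe sets were called in at least 1 of them. Most of the rises belonged to the immediate early and feedback lists, and they ranged from 0.47 to 2.70 on the log2 scale. On all 24 arrays the 18 shared calls ranged from 0.73 (Jun) to 2.36 (Npas4), with Fos lower at 1.83 and Ptgs2 higher at 1.63 than on the 20. Of the 28 rises, 19 had a level of 7 or more and 9 a lower one, and both falls were under that level. When each of the 10 mice was left out in turn from the 20 arrays, 17 of the 28 rises and 0 of the 2 falls kept their call every time.

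The transcription factors held the largest group of rises. Of 29 measured immediate early transcription regulators 12 rose on the 20 arrays and 10 on all arrays, 0 fell, and the median side difference of the list was 0.51 against -0.003 over all 19505 genes. Npas4 is a neuron-specific factor that is induced by calcium entry. Its CL signal was 4.99 at the lowest, 6.68 at the median and 9.51 at the highest of 7 mice, and its IP signal was 8.90, 9.70 and 10.17. The sides overlapped, because 1 mouse had a CL signal as high as the IP signals. The rise was 6.48-fold (2.70 ± 0.41 SE, limma adjusted p = 0.0211, higher in 6 of 7 mice), with CL above background in 5 of 7 mice, and at least 6.09-fold with each CL signal set at no less than the background of its array. It lost its call when MCAO mouse 1, 4, 5, 7 or 8 was left out (2.41 at the lowest, adjusted p up to 0.0907).

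Fos and Fosb code for subunits of the AP-1 factor. Fos had a CL signal of 5.37, 6.47 and 8.47 (lowest, median and highest) and an IP signal of 8.08, 8.90 and 9.13. It rose 4.37-fold (2.13 ± 0.23, limma adjusted p = 0.00237, CL above background in 6 of 7 mice) in 7 of 7 mice, and only the highest CL signal reached into the IP range. Fosb rose 3.85-fold (1.94 ± 0.21, limma adjusted p = 0.00237). Their partner genes rose less, Junb 2.58-fold (1.37 ± 0.12, limma adjusted p = 0.000632) and Jun 1.63-fold (0.70 ± 0.09, limma adjusted p = 0.00435). Jun was among the 7 rises whose sides did not overlap, with 6.80 to 7.56 in CL and 7.73 to 8.18 in IP.

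Atf3, a bZIP repressor induced by cellular stress, had a CL signal that was below background in 7 of 7 mice, at 4.29, 4.93 and 5.33. In IP it was above background in 7 of 7, at 5.88, 6.53 and 6.98, and the sides did not overlap. It was at least 1.94-fold higher (1.60 ± 0.20, limma adjusted p = 0.00435), a bound that sets each CL signal at no less than the background of its array. The zinc-finger factors Egr4 and Egr2 rose 2.83-fold and 2.69-fold on the 20 arrays (1.50 ± 0.19 and 1.43 ± 0.18, limma adjusted p = 0.00451 and 0.00435). The orphan nuclear receptors Nr4a1 and Nr4a3, which act without a known hormone, rose 2.62-fold and 2.07-fold (1.39 ± 0.20 and 1.05 ± 0.17, limma adjusted p = 0.0155 and 0.0328). Ier2 and Btg2, an immediate early nuclear protein and an antiproliferative cofactor, rose by 1.10 ± 0.14 and 1.30 ± 0.13 (limma adjusted p = 0.00435 and 0.00196). Ier2 was above background in 1 of 7 CL and 5 of 7 IP arrays. Nr4a1 lost its call without MCAO mouse 1, 4, 7 or 8 (1.25 at the lowest, adjusted p up to 0.0731). Nr4a3 lost its call without any of MCAO mice 1, 4, 6, 7 and 8 or of sham mice 2, 3 and 4 (0.90 at the lowest, adjusted p up to 0.129). Across all 24 arrays Egr2 (1.17 ± 0.24) and Ier2 (0.95 ± 0.17) had adjusted p-values of 0.122 and 0.0528.

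The sequences before the start sites of these genes are known for CREB and SRF sites, so the 250 bases upstream of each called rise were searched in the RefSeq promoters of mouse build GRCm38.p6, of which 24 of 29 rises (Hspa1b included) had a match. The core of the CREB site, TGACG on either strand, was found in 13 of 24 rises (54.2%) against 23.4% of 15691 genes. The full palindrome TGACGTCA was found in 2, Btg2 and Dusp1 (8.33% against 2.27%), and every full site also counts as a core. The SRF site, the CArG box, searched on both strands, was found in Egr2 and Zfp36 (8.33% against 1.54%). The AP-1 site TGANTCA was in 1 of 24 (4.17% against 7.37%), the GC box GGGCGG in 16 (66.7% against 47.7%), the NF-kB site in 4 (16.7% against 7.38%), the E-box CACGTG in 4 (16.7% against 7.92%) and the heat shock element in 0 (0.478% of all). These shares were not matched for base composition, were not tested, and a match is not a measured binding site. The 6 promoters below are each 250 bases on the strand of the gene and end at the base before the start. They are examples of rises with cores (Npas4, Fos, Nr4a1, Btg2), with a CArG box (Zfp36) and with neither (Ccl3) in this window. Egr2 had both cores and a CArG box, and sites farther upstream were not searched. Capitals mark TGACG, its reverse complement CGTCA and the CArG box.
Npas4, chr19:4989972-4990221, minus strand: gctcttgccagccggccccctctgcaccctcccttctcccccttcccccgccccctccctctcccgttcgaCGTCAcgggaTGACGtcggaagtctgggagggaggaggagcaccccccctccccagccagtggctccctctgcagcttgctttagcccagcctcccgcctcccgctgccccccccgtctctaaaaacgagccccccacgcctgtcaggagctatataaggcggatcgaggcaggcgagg
Fos, chr12:85473640-85473889, plus strand: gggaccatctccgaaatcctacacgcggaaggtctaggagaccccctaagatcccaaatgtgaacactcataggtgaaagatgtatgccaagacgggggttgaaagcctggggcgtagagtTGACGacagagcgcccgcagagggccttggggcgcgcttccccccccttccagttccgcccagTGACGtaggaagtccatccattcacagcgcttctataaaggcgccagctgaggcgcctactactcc
Nr4a1, chr15:101266596-101266845, plus strand: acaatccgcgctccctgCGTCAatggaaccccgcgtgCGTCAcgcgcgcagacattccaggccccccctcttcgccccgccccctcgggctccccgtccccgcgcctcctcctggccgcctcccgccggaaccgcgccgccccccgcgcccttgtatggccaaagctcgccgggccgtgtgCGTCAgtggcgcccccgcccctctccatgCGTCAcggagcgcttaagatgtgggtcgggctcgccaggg
Btg2, chr1:134079156-134079405, minus strand: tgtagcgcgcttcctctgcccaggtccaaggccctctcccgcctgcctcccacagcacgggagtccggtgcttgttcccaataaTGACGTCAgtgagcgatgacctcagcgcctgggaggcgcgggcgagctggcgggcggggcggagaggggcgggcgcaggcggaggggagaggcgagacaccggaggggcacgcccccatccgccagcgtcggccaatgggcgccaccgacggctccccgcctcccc
Zfp36, chr7:28379229-28379478, minus strand: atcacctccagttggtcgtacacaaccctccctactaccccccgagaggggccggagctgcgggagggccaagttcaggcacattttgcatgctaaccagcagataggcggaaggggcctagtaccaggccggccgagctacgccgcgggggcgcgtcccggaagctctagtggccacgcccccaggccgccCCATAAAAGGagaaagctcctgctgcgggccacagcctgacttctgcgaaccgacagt
Ccl3, chr11:83649379-83649628, minus strand: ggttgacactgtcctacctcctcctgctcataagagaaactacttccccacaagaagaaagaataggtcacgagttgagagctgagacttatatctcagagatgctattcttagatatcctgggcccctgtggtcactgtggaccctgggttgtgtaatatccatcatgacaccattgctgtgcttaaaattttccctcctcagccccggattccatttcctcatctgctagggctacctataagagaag
In Nr4a1 all 4 cores lay as CGTCA, from 233 to 36 bases before the start, and in Btg2 the cores of both strands overlapped in 1 palindrome.

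Genes that neuronal activity induces at synapses and in signalling formed the next group, with 4 of 25 measured effectors higher in each fit and a list median of 0.38 on the 20 arrays. Rgs2, which speeds the shut-off of G protein signals, had a CL signal of 7.28, 7.95 and 9.41 and an IP signal of 8.92, 9.61 and 10.15. It rose 2.77-fold (1.47 ± 0.19, limma adjusted p = 0.00435) in 7 of 7 mice. Gadd45g, a growth arrest and DNA demethylation factor, rose 2.63-fold (1.40 ± 0.18, limma adjusted p = 0.00435). Ptgs2, the inducible cyclooxygenase of prostaglandin synthesis, rose 2.60-fold (1.38 ± 0.17, limma adjusted p = 0.00435). Arc, which regulates AMPA receptor removal from synapses, rose 2.31-fold (1.21 ± 0.17, limma adjusted p = 0.0123) and was also higher on the operated side of 3 of 3 sham mice (0.35). Arc lost its call without MCAO mouse 1, 4, 5 or 8 (1.09 at the lowest, adjusted p up to 0.0612).

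Negative regulators of the inducing signals rose as well. Of 14 phosphatases and feedback inhibitors of MAP kinases, Dusp6 and Dusp1 rose on the 20 arrays, and the list median was 0.32. Dusp6, which dephosphorylates ERK, had non-overlapping sides with 7.24, 8.03 and 8.81 in CL and 8.97, 9.10 and 9.32 in IP (1.10 ± 0.17, limma adjusted p = 0.0211). Dusp1, a nuclear phosphatase of p38 and JNK, went from 9.07, 9.44 and 10.33 in CL to 10.30, 10.49 and 10.67 in IP (0.93 ± 0.14, limma adjusted p = 0.0173). Its sides met only at the highest CL and the lowest IP signal. Both genes lost their call without MCAO mouse 1, 4, 5, 7 or 8 (0.99 and 0.85 at the lowest, adjusted p up to 0.0981 and 0.0777). With all 24 arrays Dusp1 was at 0.86 ± 0.17 with an adjusted p of 0.0947.

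Of 15 genes of mRNA decay and early feedback 4 rose on the 20 arrays and 1 (Btg2) on all arrays. Zfp36, whose protein tristetraprolin directs AU-rich mRNAs to decay, rose at least 1.87-fold (1.28 ± 0.15, limma adjusted p = 0.00329), a bound because CL was above background in 4 of 7 mice. Trib1, a pseudokinase that targets proteins for degradation, rose by 0.80 ± 0.11 (limma adjusted p = 0.00905). Zfp36l1, a relative of Zfp36, had the smallest called rise (0.47 ± 0.08, limma adjusted p = 0.0457), a call that was lost whichever of the 10 mice was left out (adjusted p 0.0587 to 0.189). These 3 genes had, on all 24 arrays, adjusted p-values of 0.301, 0.191 and 0.607.

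Outside these groups, Ccl3 codes for a chemokine that microglia and macrophages release. Its CL signal was below background in 7 of 7 mice at 3.45, 3.88 and 5.35, and its IP signal was above it in 7 of 7 at 5.81, 6.64 and 7.53, with no overlap. It was at least 2.12-fold higher (2.46 ± 0.22, limma adjusted p = 0.000632) and was the 1 called member of 22 cytokines and chemokines, whose median was 0.15. The median over 7 microglial markers, which include Cx3cr1 and P2ry12, was 0.07 with 0 called. Ccn1, a secreted matricellular protein, went from 6.79, 7.49 and 8.84 in CL to 9.10, 9.56 and 9.76 in IP without overlap, and rose 3.58-fold (1.84 ± 0.21, limma adjusted p = 0.00329). Thbs1, the thrombospondin-1 gene, differed by 1.08 ± 0.13 (limma adjusted p = 0.00329) but exceeded background on none of the 14 arrays, so no fold is given. These were the 2 called members of 22 matricellular, protease and vascular genes, whose median was 0.07. Apold1, an immediate early gene of endothelium, was at 0.84 ± 0.15 with an adjusted p of 0.0614.

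Of the remaining calls, Depp1, a FoxO-regulated gene of autophagy, rose by 1.03 ± 0.17 (limma adjusted p = 0.0389). It was above background on 1 of 7 CL and 6 of 7 IP arrays. With each CL signal set at no less than background, it was at least 1.40-fold higher. Its sides did not overlap but nearly met, at 5.28 for the highest CL and 5.29 for the lowest IP signal. Cited2, a CBP/p300-binding transactivator, rose by 0.62 ± 0.11 and Tiparp, an ADP-ribosyltransferase, by 0.70 ± 0.12 (both limma adjusted p = 0.0476). Tiparp was above background on 0 of 7 CL and 4 of 7 IP arrays. The unnamed probe set TC1100001668.mm.2 rose by 0.88 ± 0.14 (limma adjusted p = 0.0311). Each of these 4 calls was lost in 7 to 9 of the 10 fits without 1 mouse, at differences of 0.56 or more (adjusted p up to 0.189), and on all 24 arrays their adjusted p-values were 0.213 to 0.936. Hspa1b, an inducible Hsp70 chaperone, was called on all 24 arrays (1.50 ± 0.25, limma adjusted p = 0.0165) and not on the 20 (1.43 ± 0.28, adjusted p = 0.0908). The call on 24 arrays was lost without MCAO mouse 3, 4, 7 or 8 (1.30 at the lowest, limma adjusted p up to 0.0981). Its side difference varied widely between mice, at 0.28, 0.48 and 0.68 in mice 1, 2 and 5 and at 1.25 in mouse 6. In mice 7, 4 and 8 it was 2.08, 2.33 and 2.90. The near-identical copy Hspa1a was at 1.49 ± 0.26 on the 20 arrays (limma adjusted p = 0.0542), and probe sets of the pair can share signal. In mouse 3 the copies went opposite ways, with Hspa1b at 2.00 and Hspa1a at -1.11. The other heat shock chaperones gave a median of 0.10 over 15 measured genes, these copies included, with 0 called on the 20 arrays.

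The sides were less separate than the mean differences imply, and the spread sat mainly on the opposite side. Over the 28 rises the SD among the 7 CL arrays exceeded that among the IP arrays in 23 (median SD 0.563 against 0.355). Mouse 6 had the highest CL signal in 24 of the 28, at a median of 1.20 above the median of the other 6 mice, and mouse 2 had it in 3 and mouse 8 in 1. Its IP signal was at or above the median of the others in 22 of 28, so its low side differences (median 0.40) went with a high opposite hemisphere and not with a low occluded one. The medians of the other kept mice were 1.08 to 1.65. In Npas4 mouse 6 differed by -0.08, in Arc by 0.06, in Ptgs2 by 0.13 and in Rgs2 by 0.20. Not all rises were level in this mouse, and Atf3 differed by 1.79, Depp1 by 1.32, Ccl3 by 1.29 and Hspa1b by 1.25. Whether RNA quality, the side at dissection or the course of the surgery went with mouse 6 was not tested.

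**Figure D1:**
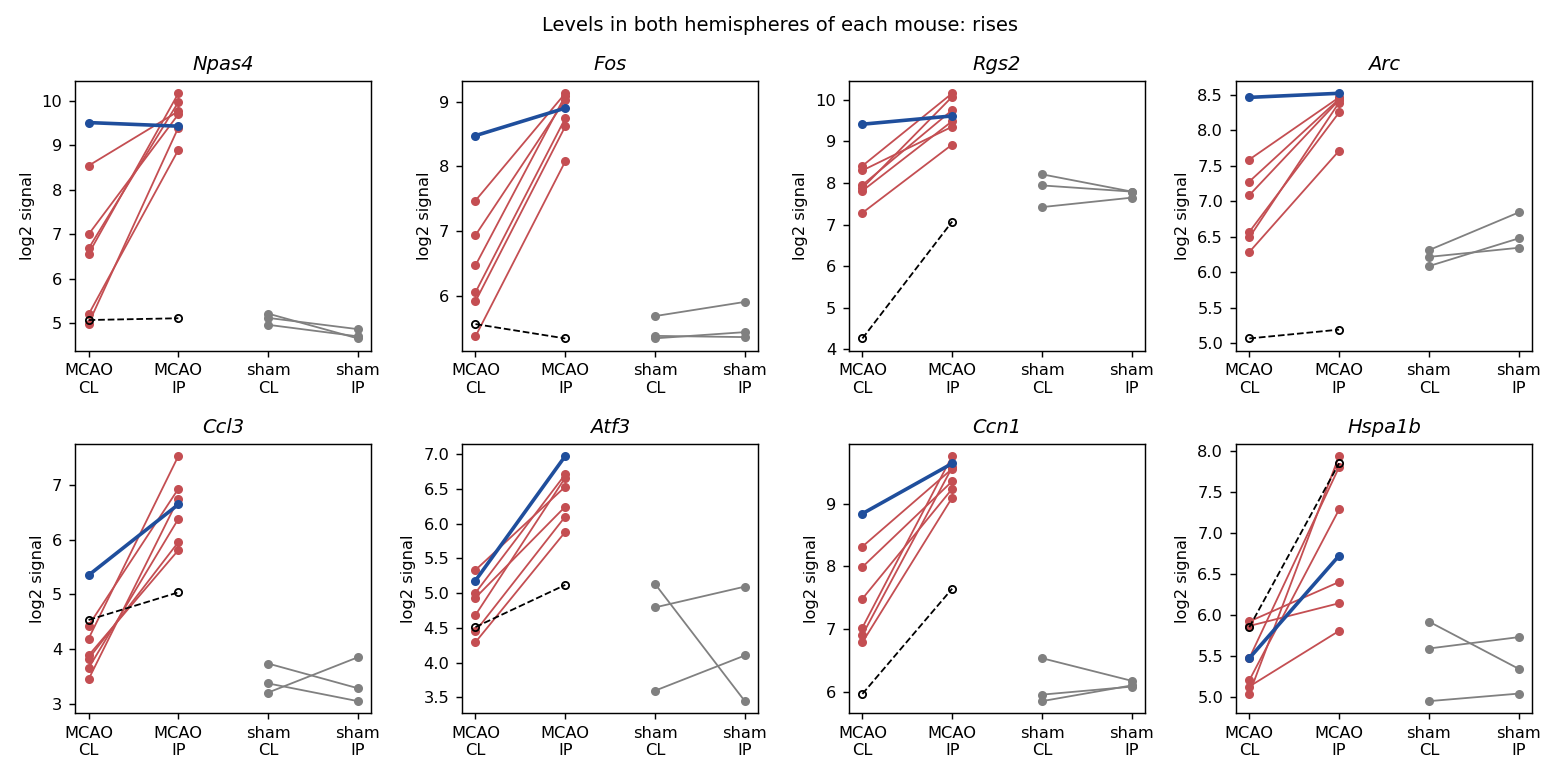
Log2 signal of 8 genes in the CL and IP hemisphere of each mouse, with lines joining the hemispheres of 1 mouse. Red lines are MCAO mice 1, 2, 4, 5, 7 and 8, the thick blue line mouse 6, the dashed black line mouse 3 (low array SD) and grey lines the 3 kept sham mice. Mouse 6 had the highest CL signal of the 7 kept mice in Npas4, Fos, Rgs2, Arc, Ccl3 and Ccn1, and its lines rose clearly in Ccl3, Atf3 and Hspa1b.

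Sham brains gave the background of the same comparison. In the 3 kept sham mice the mean side difference of the 28 rises was above 0 for 13 and ranged from -0.36 to 0.35, and limma called 0 of all probe sets there. Every kept MCAO difference exceeded every kept sham difference in 21 of the 28, against 237 probe sets (1.07%) of all tested. In 26 of the 28, every IP array of the 7 mice was above every kept sham array of either side. The same held for every CL array in 3, and for the CL array of mouse 6 in 28. The share over all probe sets was not counted for the 26, 3 and 28. Since the 28 rises were chosen on these same MCAO arrays, these counts and the 21 describe them and are no separate evidence. The test of the difference itself, side by surgery, passed for 0 probe sets in either fit of limma, with 1312 at an unadjusted p under 0.05 on the 20 arrays and 1138 on all. It was 3.05 ± 0.76 for Npas4 (adjusted p = 0.481) and 2.50 for Ccl3 (adjusted p = 0.289).

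In mouse 3, which had no part in choosing the 28 rises on the 20 arrays, 20 of them were above 0, with a median of 0.37. Medians of the marker lists in this mouse ranged from -0.87 (oligodendrocyte precursors) to 1.28 (neurons). The share of all probe sets above 0 in mouse 3 was not counted, so the 20 are no separate evidence on the rises. Ptgs2 (3.39), Rgs2 (2.81), Dusp6 (2.26), Nr4a3 (1.90) and Ccn1 (1.68) had its largest differences, while Fos (-0.22), Fosb (-0.18) and Egr2 (-0.60) were below 0. Most of these signals lay within the background of its arrays, which was 7.41 in IP and 7.60 in CL. Of the 28 rises, 2 (Nr4a3 and Ccn1) exceeded it in IP and 1 (Egr2) in CL. The SD of its side difference over all probe sets was 0.953, against 0.312 to 0.399 in the other mice. The separation of the sides depended on leaving mouse 3 out. Over 7 mice, 16 probe sets were higher without overlap (0.0721% of those tested) and 11 lower (0.0495%), and over 8 mice 0 were higher (0%) and 1 lower (0.00450%).

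Among the 4636 probe sets of level 7 or more, where the median SE was 0.0857, side differences leaned upward in size more than in number. Of these 55.2% were above 0, and the median was 0.01. Differences of 1 or more were 15 higher and 0 lower, and those of 0.5 to 1 were 10 higher and 0 lower. Between 0.3 and 0.5 there were 26 higher and 9 lower, and between 0.2 and 0.3 there were 70 and 44. In all 7 mice the direction was the same for 88 probe sets that were higher (1.90% of these) and 47 that were lower (1.01%). That split depended on the scaling, with 89 higher and 85 lower after quantile normalization and 157 and 28 after median centring. On the deposited values the higher ones had a median of 0.26, and the lower ones a median of -0.18 with a range from -0.42 to -0.09. In mouse 3 the direction was kept by 73 of the 88 and by 12 of the 47. The share of all level 7 probe sets above 0 in mouse 3 was not counted. Their median moved from 0.01 to 0.0858 when mouse 3 was included, so these 2 counts are no separate evidence on rises or falls. In the 3 kept sham mice, 2 of the 47 were lower and 5 higher in every mouse.

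**Figure D2:**
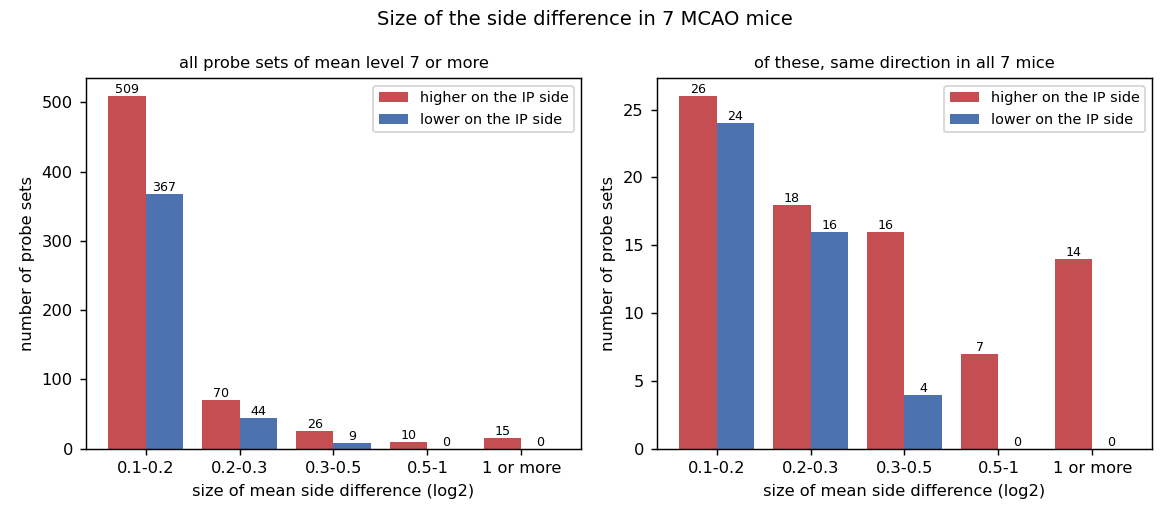
Number of probe sets of level 7 or more by the size of the mean side difference over 7 MCAO mice (log2), for all of them (left) and for those with 1 direction in all 7 mice (right). Red bars are probe sets higher on the IP side and blue bars lower ones, and differences under 0.1 are not drawn. No fall reached 0.5, while 25 rises did.

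A fit restricted to probe sets with a mean of 7 or more over its arrays had 4588 left on the 20 arrays. Limma then called 34 higher (0.741%) and 4 lower (0.0872%), of which 15 were called in the full table. The mean took both sides together, so a rise could pass through its IP signals. Fos, for example, had medians of 6.47 in CL, 5.41 in kept sham arrays and 8.90 in IP. How many calls passed in this way was not counted. On all 24 arrays 3643 remained, 7 were called higher (0.192%) and 0 lower (0%), with 79 at an unadjusted p under 0.05. The calls of 21 of the 34 rises and 0 of the 4 falls stood whichever of the 10 mice was left out. The adjusted p-values in the paragraphs on mid-sized rises and on falls are from this restricted fit on 20 arrays unless the full table is named, and SEs are those of the full table.

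Mid-sized rises, from 0.3 to under 1, numbered 36 at level 7 or more, 23 of them higher in all 7 mice and 4 called in the full table. Egr1, a zinc-finger factor of the same family as Egr2 and Egr4, went from 9.66, 10.10 and 10.85 in CL to 10.62, 10.87 and 11.03 in IP (0.67 ± 0.12, limma adjusted p = 0.00043, and 0.0717 in the full table). P4ha1, a HIF-1 target and subunit of the enzyme that hydroxylates collagen prolines, went from 7.08, 7.28 and 7.87 to 7.49, 8.10 and 8.24 (0.58 ± 0.11, limma adjusted p = 0.000825, and 0.0905 in the full table). The sides of both genes overlapped although every mouse rose, a condition of the rule that named them. P4ha1 stood nearly alone in its list, since the median over 21 hypoxia and HIF-1 targets was 0.06 with 0 called in the full table.

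Klf6, a zinc-finger factor induced by injury, rose by 0.51 ± 0.11 (limma adjusted p = 0.00288), and Spry2, a feedback inhibitor of receptor tyrosine kinases, by 0.44 ± 0.10 (adjusted p = 0.00352). Dusp14, a small dual-specificity phosphatase, rose by 0.58 ± 0.14 (limma adjusted p = 0.00958), a call lost without mouse 7 (0.43, adjusted p = 0.0537). Fbxo33, an F-box protein of a ubiquitin ligase, rose by 0.46 ± 0.10 (limma adjusted p = 0.00514), and Ranbp2, a nucleoporin and SUMO ligase, by 0.47 ± 0.11 (adjusted p = 0.00628). Every one of these 5 was higher in 7 of 7 mice, which the rule that named them required. In the full table their limma adjusted p-values were 0.147 to 0.253. Sox9, a transcription factor of astrocytes, rose by 0.39 ± 0.10 (limma adjusted p = 0.0102), a call lost without mouse 2 or 7 (adjusted p up to 0.0571), while the median over 8 astrocyte markers was 0.05. Slc25a25, a mitochondrial ATP-Mg carrier gene, was at 0.48 ± 0.10 and was not in the restricted fit (adjusted p = 0.144 in the full table).

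The smaller calls were less stable. Cckbr, a cholecystokinin receptor gene, rose by 0.39 ± 0.11, Chmp1b, an ESCRT-III subunit gene, by 0.35 ± 0.09 and Dnajb1, an Hsp40 co-chaperone, by 0.34 ± 0.09 (limma adjusted p = 0.0381, 0.0201 and 0.0219), and each call was lost in 3 to 5 of the 10 fits without 1 mouse (adjusted p up to 0.153). A further 8 calls, named after their values were seen, had differences from 0.29 to 0.42. They were Midn, Dnajb4, Prdm8, Htr1b, Egr3, Scg2, B3gnt2 and the unnamed TC1300002474.mm.2, with restricted adjusted p-values from 0.0272 (B3gnt2) to 0.0464 (Scg2). Each was lost in 4 to 9 of those fits (adjusted p up to 0.211). Egr3 is the remaining Egr factor, and Scg2 codes for a granin of neuronal secretory vesicles. On all 24 arrays the 12 mid-sized rises named by rule were at 0.23 (Dnajb1) to 0.72 (Egr1), with full-table adjusted p-values of 0.354 to 0.94.

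**Figure D3:**
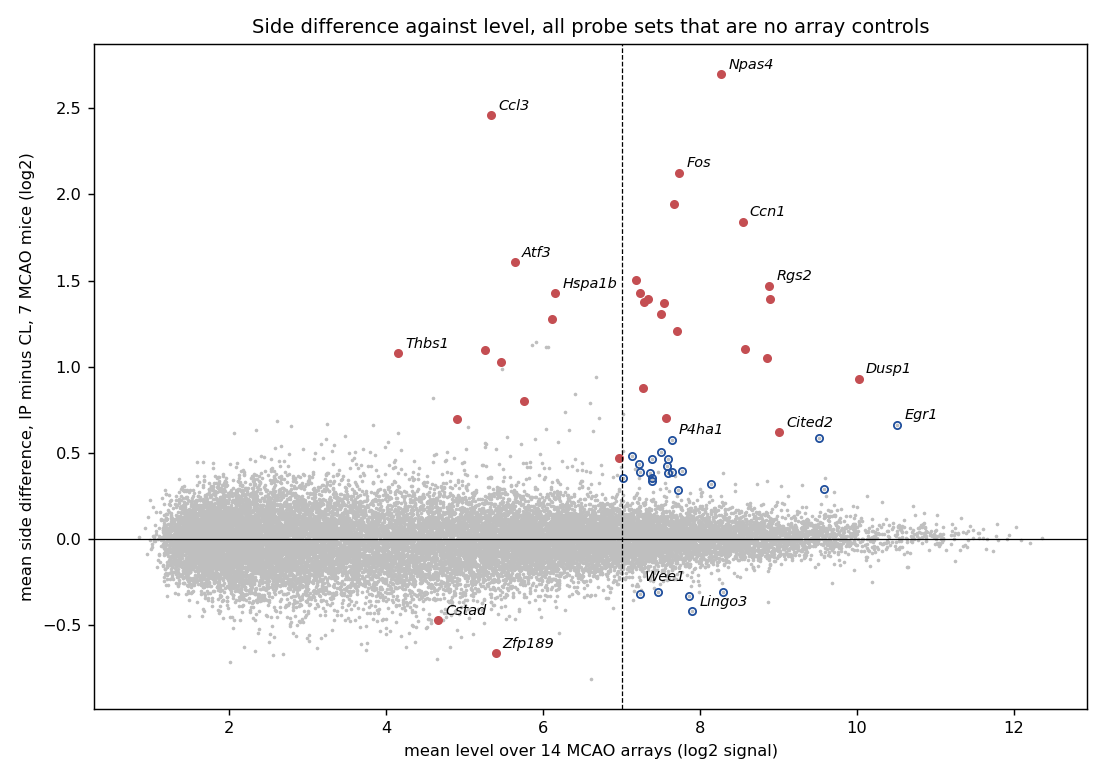
Mean side difference over 7 MCAO mice (IP minus CL, log2) against the mean level over their 14 arrays, for 22206 probe sets. Filled red points are the 31 called in the full table on 20 or 24 arrays, open blue points are named mid-sized rises, falls and further calls at level 7 or more, and the dashed line marks level 7. Rises of 1 or more have no counterpart below 0, and the spread narrows as the level grows.

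Falls at level 7 or more were small, and in the full table the smallest adjusted p among the 47 that were lower in all 7 mice was 0.225. That gene was Lingo3, which codes for a leucine-rich repeat transmembrane protein of the LINGO family. It went from 7.38, 8.12 and 8.55 in CL to 7.27, 7.71 and 8.26 in IP and fell 1.34-fold (-0.42 ± 0.10, limma adjusted p = 0.00689). The sides overlapped widely because mice differed from one another by more than the fall. The call was lost without mouse 7 (-0.37, adjusted p = 0.0537), and mouse 3 was higher by 0.55.

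Of the 3 other called falls, 2 are described here and were named after their values were seen. Wee1, the kinase that holds CDK1 inactive before mitosis, fell by 0.27 on the log2 scale (-0.27 ± 0.08, limma adjusted p = 0.0381) and was lower in 7 of 7 mice. Its CL signals were 7.06, 7.38 and 7.50 and its IP signals 6.83, 7.10 and 7.23, and kept sham mice were at -0.15 on average. Mouse 3 was at -0.65 in Wee1, but both signals there (4.80 in IP, 5.45 in CL) lay below the background of its arrays. Nckipsd, an SH3 protein that binds Nck and N-WASP, fell from 7.46, 7.53 and 7.66 to 7.14, 7.22 and 7.47 (-0.28 ± 0.08, limma adjusted p = 0.0403), and its sides met only at their ends. These calls were lost in 8 and 7 of the 10 fits without 1 mouse (limma adjusted p up to 0.122 and 0.139). On all 24 arrays Lingo3 was at -0.30, Wee1 at -0.32 and Nckipsd at -0.18, each with a full-table adjusted p of 0.94.

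The rule for falls, a mean fall of 0.3 or more with the same direction in every kept mouse, named 3 other genes. None was called in either fit, and single mice were near 0, such as mouse 2 in Fkbp5 (-0.0018) and mouse 1 in Car7 (-0.0237) and Srxn1 (-0.0346). Fkbp5, a glucocorticoid-induced co-chaperone of the steroid receptors, was at -0.33 ± 0.11 (full-table adjusted p = 0.504). Car7, a neuronal carbonic anhydrase, was at -0.32 ± 0.10 (0.492) and Srxn1, the sulfiredoxin of the Nrf2 response, at -0.31 ± 0.11 (0.538). In mouse 3 these 3 genes were higher, by 0.47, 1.52 and 1.53, with signals on both sides below the background of its arrays. The next 8 genes by p that were lower in all 7 mice, named after their values were seen, were Ankrd13d, Nol4l, Arhgap39, Rufy2, Dpf1, Chst15, Tmem248 and Mical3, at -0.27 to -0.23 (full-table adjusted p = 0.461 to 0.606). Dpf1, a neuron-specific subunit of the BAF chromatin remodeller, was at -0.24 ± 0.07 on the 20 arrays. It was also lower in mouse 3, where both signals (4.48 in IP, 4.74 in CL) lay below background. Among 14 glucocorticoid-responsive genes 4 were above 0, the median was -0.16 and 0 were called, against a median of -0.04 in the kept sham mice. Plin4, a lipid droplet protein gene of that list, was at -0.44 ± 0.10 (adjusted p = 0.232), at a level of 4.18 that lay below background.

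**Figure D4:**
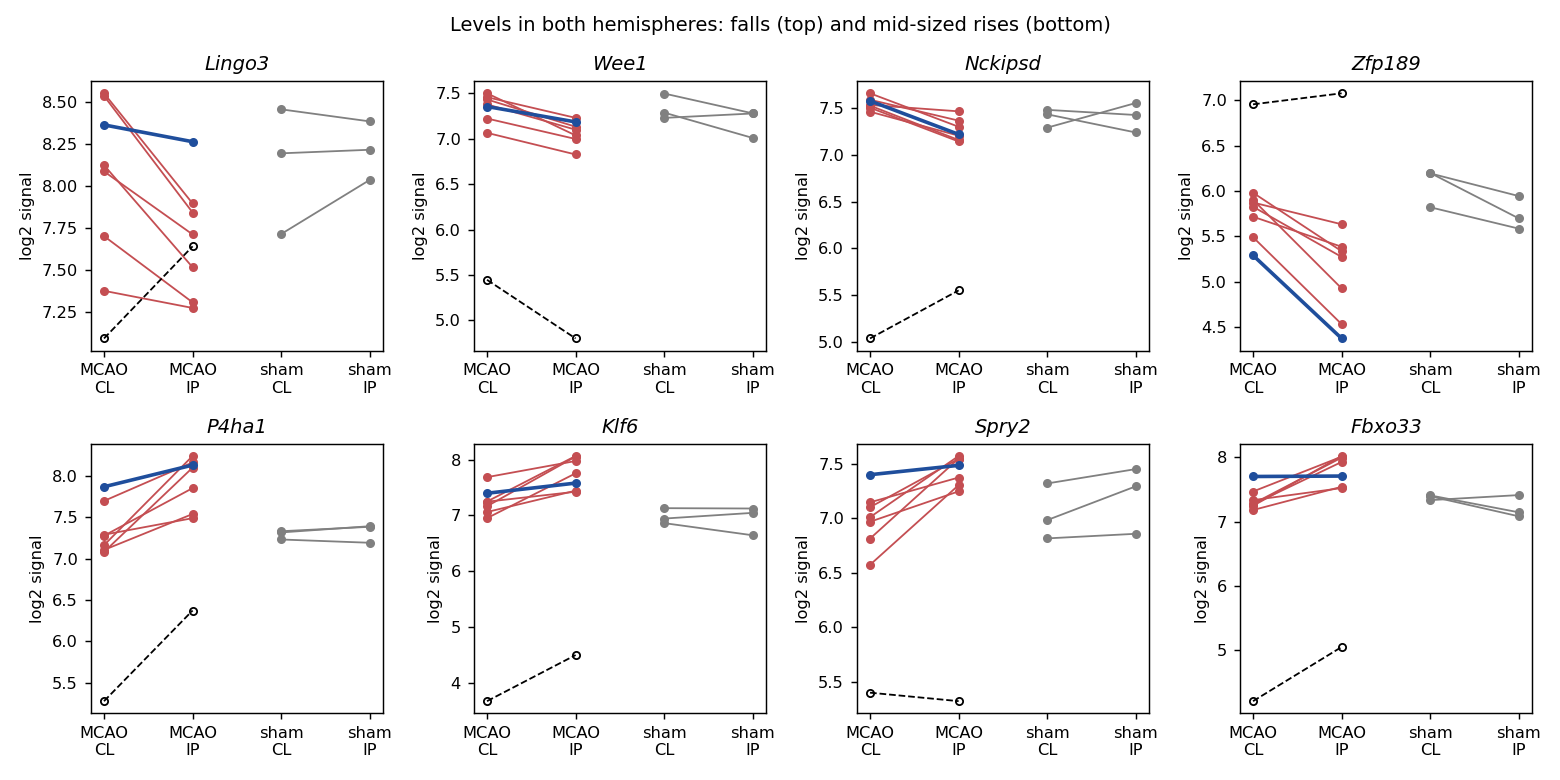
Log2 signal of 4 genes that were lower (top) and 4 mid-sized rises (bottom) in the CL and IP hemisphere of each mouse, with lines joining the hemispheres of 1 mouse. Red lines are MCAO mice 1, 2, 4, 5, 7 and 8, the thick blue line mouse 6, the dashed black line mouse 3 (low array SD) and grey lines the 3 kept sham mice. All 7 kept lines fall in the top row and rise in the bottom row, while the ranges of the sides overlap in each panel. The mid-sized rises and Lingo3 were named by a rule that required 1 direction in all 7 mice.

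The 2 falls called in the full table lay below level 7. Zfp189, a KRAB zinc-finger gene, went from 5.29, 5.83 and 5.98 in CL to 4.37, 5.27 and 5.63 in IP, and was above background in 5 of 7 CL and 2 of 7 IP arrays. It was at least 1.22-fold lower, with each IP signal set at no less than background (-0.66 ± 0.10 as measured, limma adjusted p = 0.0276, lower in 7 of 7 mice). Sham mice were also lower on the operated side in 4 of 4 (-0.33 in the kept 3), and the difference between the surgeries was -0.33 (adjusted p = 0.867). The call was lost without MCAO mouse 1, 5, 6, 7 or 8 or sham mouse 2 (-0.61 at the smallest, adjusted p up to 0.1), and on all 24 arrays it was at -0.56 ± 0.14 (adjusted p = 0.354). Of 21 measured BTB or KRAB zinc-finger genes 2 were above 0, with a median of -0.15 in MCAO mice and -0.14 in kept sham mice. Cstad was below background on every array of either side and differed by -0.47 ± 0.08 (limma adjusted p = 0.0493), a call lost in 10 of 10 fits without 1 mouse (adjusted p up to 0.188). With mouse 3 and sham mouse 1 included it was at -0.41 (adjusted p = 0.881).

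Other programmes showed no called member in either fit, and their medians on the 20 arrays lay between -0.01 and 0.13. The medians were -0.01 over 22 glutamate and GABA receptor subunits, 0.01 over 24 potassium channels, -0.01 over 16 circadian clock genes and 0.08 over 16 genes of the unfolded protein and integrated stress response. Ppp1r15a, the stress-induced phosphatase cofactor that reverses eIF2alpha phosphorylation, was at 0.56 ± 0.12 (adjusted p = 0.136, higher in 7 of 7). Among clock genes, Per1 was at 0.38 ± 0.12 and Ciart at 0.35 ± 0.09 (adjusted p = 0.432 and 0.323). The medians were 0.07 over 16 Notch, Wnt and Id targets, 0.13 over 14 sterol synthesis genes and 0.07 over 22 oxidative phosphorylation subunits. Mouse 3 moved some lists far more than the others, with medians of 1.22 in the oxidative phosphorylation and 1.28 in the neuronal marker list, where the mean over 7 mice had medians of 0.07 and -0.003.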

How the data were processed

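Total RNA of both hemispheres of each mouse was measured on 1 Affymetrix whole-transcript array per hemisphere, per the labels. The authors deposited log2 signals, 1 per probe set and array. The submitters' processing notes name Affymetrix Expression Console. Not given in the sources used here are its version, the background correction, the normalization and the genome build, and the log2 scale was inferred from the range of values. Folds rest on that inference.

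Of 29129 probe sets 6923 array controls were left out. Side differences were fitted with limma 3.58.1 in R 4.3.3 (lmFit and eBayes, mouse as a fixed block, sham mice in the fit), with Benjamini-Hochberg adjustment across every probe set in a fit and 0.05 as the threshold. Errors are standard errors, and the number of arrays limits precision. After group means were removed, hemispheres of 1 mouse correlated at 0.13 to 0.239 (7 kept MCAO mice). Hemispheres of different mice were not set beside this, so the pairing rests on the titles. For lists, the probe set with the highest mean stood for a gene. The fit was tested on simulated data. Named were all called probe sets, up to 12 rises and 12 falls at level 7 or more that had 1 direction in every kept mouse and a size of 0.3 or more (19 uncalled rises with a gene symbol and 4 falls qualified, and 12 and 4 were named), and up to 3 members per list. The comparison, its lists and rules were chosen with earlier results of these data known. Alternatives covered the block, MCAO arrays only, eBayes settings, centring, quantile normalization, array weights, level limits, probe sets with 1 gene and leaving out each mouse. Promoters are RefSeq's for GRCm38.p6. Python 3.11.15 and matplotlib 3.10.9 made the figures. The values of 1 called fall are not reported here.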

Additional observations from a re-analysis of the deposited data

Results flagged for a closer look

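Of 80 genes examined over 8 MCAO mice, 13 had 1 mouse far from the others in its side difference by Dixon's criterion. In 11 of these the mouse was mouse 3. Many of the 80 were chosen by the fit or the direction of the 7 kept mice, without mouse 3. The SD of side differences in mouse 3 was 0.953, against 0.312 to 0.399 in the others. Its place apart was thus partly set by the choice, and no chance rate applies. Mouse 3 was above the next mouse in Tac1 (2.96 against 1.10), Scg2 (2.16 against 0.60), Srxn1 (1.53 against -0.03), Car7 (1.52 against -0.02), Tmem248 (0.91 against -0.0002), Rufy2 (0.80 against -0.04), Nckipsd (0.51 against -0.07) and Zfp58 (0.36 against -0.17). It was below the next mouse in Msmo1 (-1.37 against -0.0087), Htr1b (-0.55 against 0.15) and Dnajb1 (-0.53 against 0.16). Mouse 7 stood apart in Slc25a25 (1.04 against 0.57), and mouse 6 in Cited2 (-0.027 against 0.54).

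Of the 80 genes examined one by one, 6 were those in which every kept MCAO mouse differed in one direction and every kept sham mouse in the other. At level 7 or more, 88 probe sets were higher in every kept MCAO mouse, and 10 of these were lower in every kept sham mouse. Of the 47 lower ones 5 went the reverse way. Many of the 80 were chosen by their direction in the kept MCAO mice, so the 6 are no separate evidence. Cstad, at a level of 4.66, was outside the 88 and 47. The means of the 6 were -0.47 in MCAO and 0.30 in sham mice for Cstad, -0.32 and 0.08 for Car7, 1.10 and -0.14 for Dusp6, 0.88 and -0.06 for TC1100001668.mm.2, 0.35 and -0.19 for Chmp1b and 0.29 and -0.12 for Scg2. The difference between the surgeries had limma adjusted p-values of 0.291, 0.842, 0.481, 0.602, 0.67 and 0.742 on the 20 arrays, so none passed.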

How the results depend on the processing

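The count of 19 called on all arrays moved to 29 when mouse was a random block (26 higher, 3 lower), 9 on the arrays of MCAO mice alone, 6 with quantile normalization, 64 with array quality weights (51 higher, 13 lower) and 7 at mean level 7 or more. With no replicate block, that is with the pairing ignored, limma called 0 on all arrays, with 105 at an unadjusted p under 0.05, and 29 on the 20 arrays. Leaving out 1 mouse gave 10 to 23, with 10 without MCAO mouse 8. The count of 30 on the 20 arrays moved to 19 with only the arrays of MCAO mice and to 84 with eBayes trend and robust settings (71 higher, 13 lower), and leaving out 1 mouse gave 18 to 27, with 18 without MCAO mouse 7 and 19 without mouse 4 or 8.

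The 88 probe sets higher in every kept mouse became 137 at level 6, 36 at level 8 and 157 with median centring, and 115 to 212 without 1 mouse. The 47 lower ones became 96 at level 6, 13 at level 8, 12 over all 8 mice, 28 with median centring and 85 with quantile normalization, and 70 to 118 without 1 mouse, where fewer mice make 1 direction easier to reach. For the other moves the cause was not tested. Median centring moved the median side difference of all probe sets from -0.005 to 0.02. Over the 31 called probe sets, 439 alternative values kept the call and 166 lost it, with 0 changes of direction. Each probe set was varied only within a fit that called it. That was the fit on all arrays where it was called there, and otherwise the fit without the mice of low array SD. Zfp36, called only without those mice, kept its call in 18 of 18 alternatives to that fit (limma adjusted p up to 0.0277). On all arrays, with those mice included, Zfp36 was not called (limma adjusted p = 0.301). Signal over background limits Thbs1, Cstad, Tiparp, Ier2 and Depp1, among others.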
